A study of Mus musculus with 20 samples.

Results

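Mouse blastocysts that had lost a blastomere to biopsy were compared with blastocysts left untreated. The comparison used 8 of the 20 pools of the study, the 4 titled as embryo biopsy and the 4 titled as untreated, chosen by their titles alone, and it was read across all 25553 tested probe sets, the groups of short probes with which the array measures a transcript. Each pool held 20 embryos of the outbred strain CF1, so each group stood for 80 embryos. The biopsied embryos were taken at the 8-cell stage, kept for some minutes in calcium-magnesium-free medium, called CMF in the labels, which loosens the contacts between blastomeres, and then opened with a stream of acid Tyrode's solution, which dissolves part of the zona pellucida, before a nucleated cell was aspirated. The untreated embryos had neither exposure and lost no cell. Both groups were collected 96 h after the injection of human chorionic gonadotropin (hCG), which times ovulation. The labels give no sex other than female, no genetic alteration and no agent shared by both groups. The other 12 pools of the study, 4 each given CMF medium, acid Tyrode's solution or both without biopsy, served to estimate the spread and are described here only where a value touches the comparison.

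By the blastocyst stage the mouse embryo holds 3 kinds of cells. The trophectoderm, an epithelium with keratins Krt8 and Krt18, pumps fluid into the cavity and will form part of the placenta. The inner cell mass separates into epiblast, which keeps Pou5f1, Nanog and Sox2 and forms the fetus, and primitive endoderm, which expresses Gata6, Pdgfra and the endocytic receptors Lrp2 and Cubn and lays down basement membrane of laminin and type IV collagen. Collagen chains are hydroxylated, folded and held in the endoplasmic reticulum by enzymes and by Serpinh1 (Hsp47), a chaperone devoted to collagen. Cleavage-stage embryos can make good the loss of a blastomere, which is the premise on which biopsy for preimplantation diagnosis rests.

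The 8 arrays were alike in quality, with a Gapdh 3 prime to 5 prime ratio between 3.08 and 4.21 and an actin ratio between 1.51 and 2.47. The number of arrays limits the precision of every value below. An array of the group with both exposures, CMF_acid replicate 5, stood apart in the study, with an actin ratio of 4.22, and it entered the shared estimate of the spread, so counts are also given without it. All 8 pools are labelled female, and Eif2s3y, a gene of the Y chromosome, was called Present on all 8 arrays, at 10.41, 10.46, 11.14 and 10.73 in untreated replicates 2 to 5 and at 9.74, 10.98, 10.59 and 11.67 in biopsied replicates 2 to 5 (log2 intensity, the scale of all levels below). Kdm5d and Uty, also of the Y chromosome, were Present on all 8 arrays too, as was Xist, the RNA that coats the inactive X chromosome of female cells. Transcripts of the Y chromosome were thus detected in every pool, and the labels do not say whether female refers to the embryos or to their mothers. Biopsied replicate 2 had the lowest Eif2s3y, Kdm5d and Uty of the 8 pools and biopsied replicate 5 the highest, and the mean differences of Eif2s3y (0.06 ± 0.32) and Xist (-0.12 ± 0.28) were smaller than their standard errors.

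The lineage markers matched the label of blastocyst. Pou5f1 lay between 14.40 and 14.59, Krt8 between 15.15 and 15.32 and Gata6 between 13.21 and 13.45 over the 8 pools, and the groups overlapped in all 3. Markers of other cells that the pools could hold were few. Of 8 cumulus and granulosa markers on the array, Amhr2 and Star were Present in all pools of both groups, of 7 oocyte markers Gdf9 and Zp3 were, of 4 blood markers Cd68 was, and of 5 sperm markers none was, while Fshr, Has2, Inha, Amh, Ptprc and Hba-a1 were Present on 0 of the 8 arrays. The summed level of the 6 tested cumulus and granulosa genes ran from 13.34 to 13.57 in untreated and from 13.53 to 13.66 in biopsied pools, and that of the 17 tested oocyte and maternal genes from 14.76 to 14.81 and from 14.57 to 14.90. The brightest of the 6 in untreated pools was Nr5a2, which is not among the 8 markers above. That sum therefore does not measure those markers alone.

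No probe set differed between biopsied and untreated blastocysts after correction for the number tested. In the limma fit over all 20 arrays, 0 of 25553 probe sets (0%) passed an adjusted p of 0.05, and the lowest adjusted p was 0.99998. At an unadjusted p under 0.05, 350 probe sets lay higher in biopsied pools (1.37%) and 185 lower (0.724%). The 2 groups of 4 values did not overlap for 445 probe sets higher (1.74%) and 110 lower (0.43%). If group made no difference, a share of 0.05 would on average lie under that p, and a share of 0.0286 would not overlap, both directions counted. Neither trait by itself therefore marks a gene as changed, and the share under that p was larger in some other fits, given below. Counted by gene, at the brightest tested probe set, 188 of 12025 genes (1.56%) were higher and 97 (0.807%) lower at that p. Of all probe sets 14941 differed upward (58.5%) and 10612 downward (41.5%). Differences were small throughout: the median over all probe sets was 0.01 and their SD 0.15 on the log2 scale, and 25394 probe sets (99.4%) lay within 1.5-fold. The 95% interval of the difference lay within 2-fold for 24504 probe sets (95.9%) and within 1.5-fold for 19642 (76.9%). For nearly all probe sets a 2-fold difference of the values thus lay outside the interval, and for fewer of them a 1.5-fold one. At the low end of the scale a narrow interval need not bound the change of the transcript.

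Which side the lesser differences fell on depended on how the array was summarised. With the array software's own signal in place of the GC-RMA values, 289 probe sets were higher and 450 lower at an unadjusted p under 0.05, and after a further quantile normalization 277 were higher and 249 lower. Whatever their p, 6027 of 12025 genes were higher and 5998 lower with the software signal, against 7107 and 4918 with GC-RMA. List counts below compare with the counts of the same summary. Without CMF_acid replicate 5 the counts were 761 and 281, and without biopsied replicate 2 they were 367 and 299. With array weights, which count steadier arrays for more, they were 1061 and 461, together above the share of 0.05 named above. With the adjusted threshold the count stayed at 0 in these fits.

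**Figure D1:**
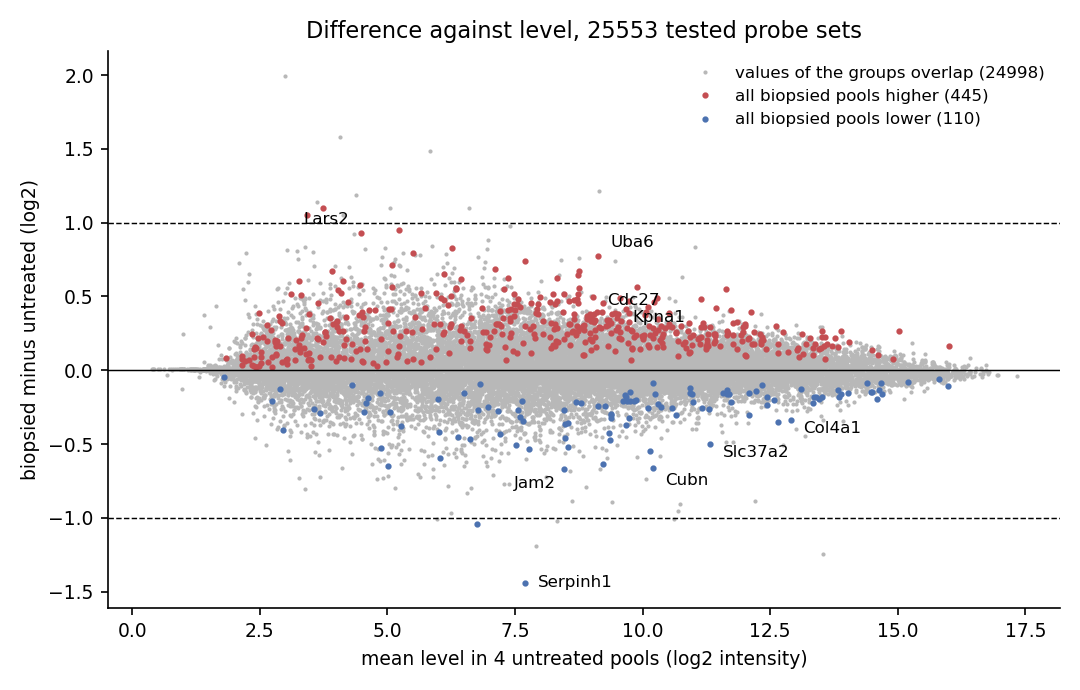
Log2 difference of biopsied minus untreated pools (vertical axis) against the mean log2 intensity in the 4 untreated pools (horizontal axis) for the 25553 tested probe sets, with dashed lines at 2-fold. Red points are the 445 probe sets with all biopsied pools above all untreated pools, blue points the 110 with all below, and most points past 2-fold belong to dim probe sets.

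Larger differences sat mainly among dim probe sets. Past 2-fold there were 11 probe sets higher and 7 lower, of which 12 had an untreated mean under 7 and only 4 had groups that did not overlap. Among these were both tested probe sets of Serpinh1, on the lower side. The median untreated level of all tested probe sets was 7.81, so dim probe sets were also common over all of them. With the probe sets split by level into 4 classes of equal size, the median standard error was 0.05 in the dimmest class, 0.19 and 0.17 in the middle classes and 0.12 in the brightest. The interval lay within 2-fold for 89.5% of the class from 3.91 to 7.81, the lowest share, and for 99.5% of the brightest. In the dimmest class, from 0.38 to 3.91, the share was 98.4%, but at such low levels narrow intervals say little of the transcripts. At an unadjusted p under 0.05 the brightest class held 46 probe sets higher and 49 lower, and the class from 3.91 to 7.81 held 149 and 58. Differences above 0 made up 67.5% of the dimmest class and 51.5% of the brightest. The share over all genes is thus an uneven baseline for lists of bright or dim genes.

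Read by replicate number, the biopsied pool was higher than the untreated pool of the same number in all 4 pairs for 1968 probe sets (7.7%) and lower in all 4 for 994 (3.89%). With signs at random, a share of 0.125 would on average agree in all 4 pairs, both directions counted. With the software signal 1561 probe sets were higher and 1778 lower in all 4 pairs. Counted by gene on the GC-RMA values, 1027 (8.54%) were higher in all 4 pairs and 528 (4.39%) lower. The pairs did not lean the same way: biopsied replicates 2, 3 and 4 were higher for 56.1%, 60.5% and 59.1% of probe sets, and biopsied replicate 5 for 44.5%. Nothing in the labels says what the numbers mark, so the unpaired fit is the one reported and the paired signs are a description. Arrays of equal number did deviate together, however. Over all 5 groups their deviations from the group means had a median correlation of 0.20, against -0.073 for unequal numbers. With the number as a block in limma 0 probe sets passed, and the lowest adjusted p was 0.363.

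The share of transcripts detected was higher in 3 of 4 biopsied pools than in any untreated pool, a difference that did not pass the test. The share of probe sets called Present was 48.8%, 49.0%, 48.6% and 47.9% in untreated replicates 2 to 5 and 50.89%, 50.14%, 50.02% and 48.72% in biopsied replicates 2 to 5. Biopsied replicate 5 lay within the untreated range, and the other biopsied pools lay above it. Pools of the other groups, without biopsy, covered the span of both, up to 50.89% in CMF_acid replicate 3 and 50.78% in CMF replicate 2. At the low end they reached 47.87% in CMF replicate 5 and 44.30% in CMF_acid replicate 5. The means were 48.6% ± 0.480 and 49.9% ± 0.899 (SD, n = 4 each), and the difference of 1.38 percentage points had p = 0.0857 in a two-sided exact permutation test over 70 assignments. In pairs the biopsied pool was higher in 4 of 4, by 2.11, 1.17, 1.39 and 0.851 points, with p = 0.125 in an exact test of sign flips, the smallest 4 pairs allow. Without biopsied replicate 5, the pool within the untreated range, the difference was 1.79 points with an exact permutation p of 0.0286. Taking out the only overlapping pool separates the groups, which fixes that p at the smallest 3 against 4 pools allow, so no conclusion is drawn from it. Leaving out any of the other 7 pools gave 1.06 to 1.52 points with an exact permutation p from 0.0857 to 0.1143.

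**Figure D2:**
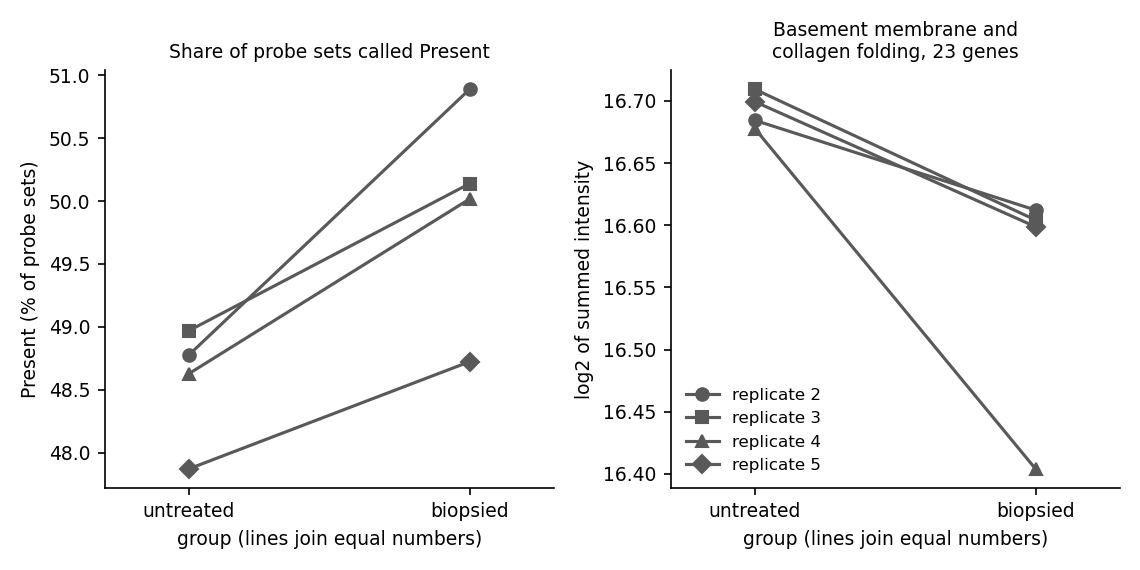
Left, percent of probe sets called Present in each pool, and right, log2 of the summed intensity of 23 basement membrane and collagen folding genes, each point a pool and each line joining pools of equal number. All 4 lines rise on the left, where biopsied replicate 5 stays within the untreated range, and all 4 descend on the right, where biopsied replicate 4 is lowest at 16.40.

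The genes of basement membrane and collagen folding lay mostly lower in biopsied blastocysts. Of the 23 members, all tested, 18 were lower and 5 higher, against 4918 of all 12025 genes lower (40.9%), each gene taken at its brightest tested probe set. The median difference was -0.18, beside 0.01 for all genes. Groups did not overlap for 3 members on the lower side, where 0.457% of all genes do so, and for 0 on the higher side, where 1.9% do. Their summed level was 16.68, 16.71, 16.68 and 16.70 in untreated replicates 2 to 5 and 16.61, 16.60, 16.40 and 16.60 in biopsied replicates 2 to 5. All biopsied pools were thus below all untreated pools, while the 12 pools of the other groups ran from 16.60 to 16.79. None of the 23 passed the adjusted threshold, and the list was drawn up with earlier results of these data known, so its direction is a description. With the software signal the median was -0.09 with again 18 lower and 5 higher, and without biopsied replicate 4, where 10 of the 23 members had the lowest value of the 8 pools, it was -0.10. In pooled embryos, fewer cells of a type and less RNA per cell cannot be told apart.

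Serpinh1, the collagen chaperone, showed the largest difference among non-overlapping probe sets on the lower side. Its brighter probe set read 8.06, 7.39, 7.75 and 7.61 in untreated replicates 2 to 5 and 6.24, 6.83, 5.73 and 6.27 in biopsied replicates 2 to 5. Every biopsied pool was below every untreated pool. The difference was -1.44 ± 0.42 (limma standard error, n = 4 each), with a 95% interval from -2.32 to -0.55. The software called this probe set Present on 4 of 4 untreated and 0 of 4 biopsied arrays, so by the means it was at least 2.71-fold lower in biopsied pools. That bound concerns detection only and leaves out the sampling error, and the interval above reaches smaller differences. With the software signal the log2 difference was -1.04, a smaller change than that bound. The name of the probe set ends in x_at, the mark for probes that can also match other transcripts. The other probe set of Serpinh1, Present on all 8 arrays, had means of 6.76 and 5.72, again without overlap. It differed by -1.04 ± 0.45, also a smaller change than that bound. In the 12 other pools Serpinh1 ranged from 5.69 to 8.24, over the span of both groups, and it was Present there on 1 of 4 arrays with CMF medium, 1 of 4 with acid and 0 of 4 with both.

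Col4a1 encodes a chain of type IV collagen. Its levels were 12.79, 12.85, 13.00 and 12.97 in untreated and 12.71, 12.70, 12.54 and 12.32 in biopsied replicates 2 to 5, a difference of -0.34 ± 0.12. The groups did not overlap, and a second probe set of Col4a1 likewise separated them at -0.30 ± 0.17. Its partner chain Col4a2 differed by -0.23 ± 0.17 with overlap, biopsied replicate 2 at 10.72 lying within the untreated range of 10.41 to 10.84. P4ha2, a catalytic subunit of prolyl 4-hydroxylase, read 11.26, 11.45, 11.30 and 11.24 in untreated and 11.13, 10.82, 11.19 and 11.03 in biopsied pools, again without overlap (-0.27 ± 0.10). Ppib, the prolyl isomerase of the endoplasmic reticulum that assists collagen folding, was lower in all 4 pairs on both of its probe sets (-0.18 ± 0.07 and -0.20 ± 0.08), though the groups overlapped. The members nearest to these, chosen after their values were seen, were the lysyl hydroxylases Plod1 (-0.36 ± 0.16) and Plod2 (-0.40 ± 0.30), the collagen galactosyltransferase Colgalt1 (-0.20 ± 0.09), the laminin chain Lama1 (-0.41 ± 0.29) and the matrix protein Sparc (-0.44 ± 0.34). Another probe set of Plod1 and of Colgalt1 had the opposite sign. On the higher side Nid2, a nidogen that links laminin to collagen, differed by 0.39 ± 0.35.

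**Figure D3:**
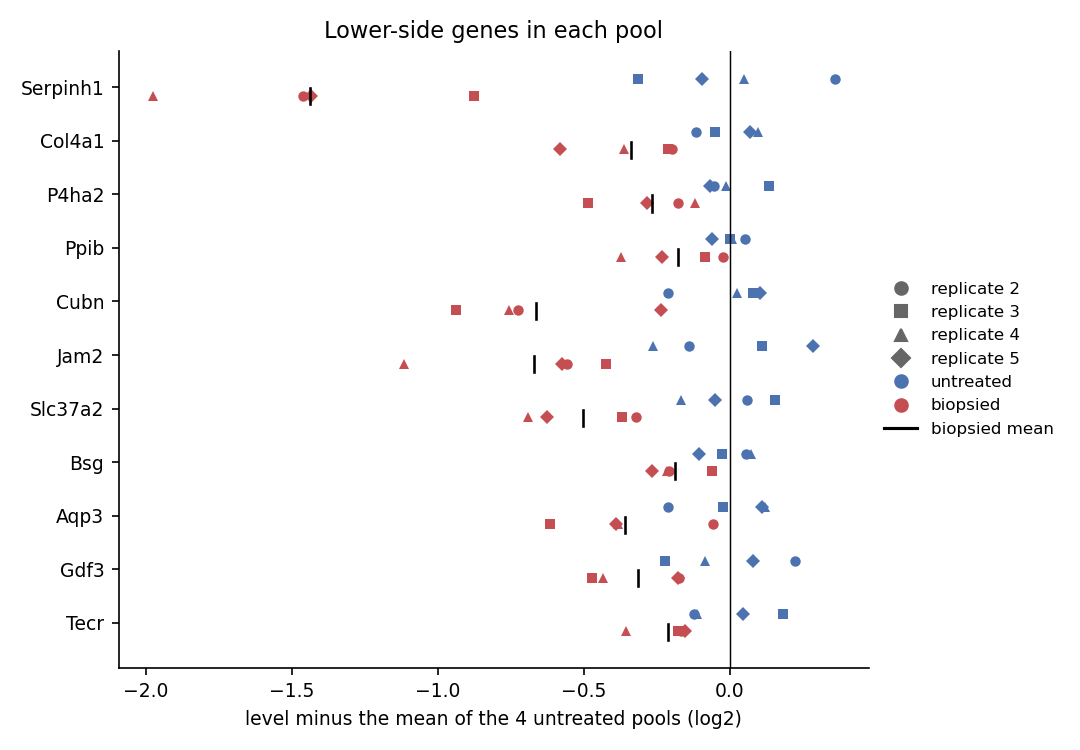
Level of 11 genes on the lower side in each pool, minus the mean of the 4 untreated pools (log2, horizontal axis), blue for untreated and red for biopsied pools, with a marker shape for each replicate number and a black bar at the biopsied mean. Serpinh1 spans the widest gap, with a biopsied mean 1.44 below the untreated mean, and Ppib, Bsg, Aqp3 and Gdf3 are shown as genes whose groups overlap.

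The primitive endoderm regulators and endocytic genes gave 11 lower (73.3%, against 40.9% of all genes) and 4 higher of 15 tested, with a median of -0.08 (-0.11 with the software signal). Cubn, the cubilin receptor that takes up proteins in the visceral endoderm, read 9.99, 10.28, 10.22 and 10.30 in untreated and 9.47, 9.26, 9.44 and 9.96 in biopsied replicates 2 to 5. The groups did not overlap, although biopsied replicate 5 came close to the lowest untreated pool. The difference was -0.66 ± 0.20 and that of its second probe set -0.72 ± 0.23. Runx1, a transcription factor, was lower by -0.64 ± 0.26, with biopsied replicate 4 alone at 3.25 and the other biopsied pools at 4.24 to 4.38 against 4.27 to 5.26 in untreated. Pdgfra, the receptor that marks primitive endoderm, overlapped at 9.85 to 10.81 in untreated and 9.35 to 10.42 in biopsied pools (-0.46 ± 0.29). The master regulator Gata6 (-0.03 ± 0.15), the adaptor Dab2 (-0.08 ± 0.06) and the megalin receptor Lrp2 (-0.04 ± 0.07) were within their errors or close to them, with 95% intervals inside 1.5-fold. Other regulators of the list had lower means with overlapping groups and wider errors: the transcription factors Sox17 (-0.65 ± 0.65, and -0.53 with the software signal), Hnf4a (-0.31 ± 0.21, with Present calls on 0 untreated and 1 biopsied array) and Gata4 (-0.20 ± 0.23, at a level near 3). Sox17 varied from 4.79 to 7.34 within the untreated pools alone. The difference between these genes was not tested.

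Epiblast and trophectoderm genes lay somewhat more often on the lower side, with medians near 0. Of 23 inner cell mass and epiblast genes tested, 15 were lower (65.2%, against 40.9% of all genes) and 8 higher with a median of -0.02, and 0 had groups that did not overlap. These counts were the same with the software signal, by which 5998 of 12025 genes were lower. The core factors were held to narrow intervals: Pou5f1 from -0.13 to 0.17, Sox2 from -0.18 to 0.13 and Nanog from -0.36 to 0.32. The largest values belonged to secreted signals and a coreceptor. Gdf3, a ligand of the Nodal family, read 10.41, 9.97, 10.10 and 10.27 in untreated and 10.01, 9.72, 9.75 and 10.01 in biopsied pools, lower in all 4 pairs with overlapping groups (-0.31 ± 0.12). Tdgf1 (Cripto), the coreceptor for Nodal, differed by -0.48 ± 0.23 and Bmp4 by -0.78 ± 0.42, with biopsied replicates 4 and 5 lowest in both. Biopsied replicate 4 held the lowest of the 8 values for 13 of the 23 genes.

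Of 22 trophectoderm genes, 13 were lower (59.1%, again against 40.9% of all genes) and 9 higher, with a median of -0.02 and the same counts with the software signal. Cdx2, the factor that sets trophectoderm fate, was higher in all 4 pairs by a mean of 0.16 ± 0.12, its groups overlapping between 12.63 and 12.65. Krt8 and Krt18 had intervals from -0.15 to 0.10 and from -0.25 to 0.23. Slc15a2, a peptide transporter, had the largest difference of the list at -1.01 ± 0.55. Its biopsied pools were spread from 8.52 to 11.15 around the untreated range of 10.32 to 11.01, so the replicates disagreed even on direction.

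Genes of the epithelium that seals and inflates the blastocyst differed little as groups, and Jam2 stood out among them. Jam2 (junctional adhesion molecule B) read 8.32, 8.57, 8.19 and 8.74 in untreated and 7.90, 8.03, 7.34 and 7.88 in biopsied replicates 2 to 5. No biopsied pool reached the lowest untreated pool. The difference was -0.67 ± 0.19, its brightest probe set gave -0.55 ± 0.19, also without overlap, and all 4 tested probe sets were lower. In the 12 other pools this probe set ran from 7.98 to 8.88. The tight junction list as a whole, Jam2 included, had 13 of 19 members higher (68.4%, against 59.1% of all genes) and a median of 0.01. With the software signal 8 were higher, with a median of -0.02. Jam2 was its 1 member whose groups did not overlap. Adherens junction and desmosome genes split 9 higher and 8 lower of 17, with a median of 0.01 and 0 separated.

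The 12 cavitation genes split 6 higher and 6 lower, with a median of -0.02, and the 1 separated member was on the higher side. Aqp3, an aquaporin that passes water and glycerol, was lower at -0.36 ± 0.11 with overlapping groups. Biopsied replicates 3 to 5 (11.21 to 11.44) were below all untreated pools (11.62 to 11.95), and biopsied replicate 2, at 11.77, lay inside their range. The sodium pump subunit Atp1b1, the brightest of the list, differed by 0.07 ± 0.11. Gjb5, a connexin of the trophoblast, was lower in all 4 pairs (-0.59 ± 0.25), from 9.66 to 10.15 in untreated and from 8.85 to 10.11 in biopsied pools. The 14 genes of acid-base and lactate transport, 9 lower (64.3%, against 40.9% of all genes) and 5 higher, had a median of -0.05. The list held 1 separated member, on the lower side. Of the 14 genes Bsg (basigin), the chaperone of lactate transporters, was lower in all 4 pairs at -0.19 ± 0.06 but overlapped, with biopsied replicate 3 above the lowest untreated pool. The 20 genes of calcium and magnesium handling, 14 higher and 6 lower, had a median of 0.02 and 0 separated members.

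The leading genes on the higher side included Cdc27, Kpna1, Tmx3 and Uba6. Cdc27, a core subunit of the anaphase-promoting complex, read 8.96, 9.09, 9.06 and 9.12 in untreated and 9.47, 9.22, 9.52 and 9.55 in biopsied replicates 2 to 5. All biopsied pools exceeded all untreated pools, by a mean of 0.38 ± 0.08, and the 12 other pools lay between 9.01 and 9.34. Its brightest probe set differed by 0.07 ± 0.10, and all 4 tested probe sets shared the sign. Kpna1, an importin alpha that carries cargo into the nucleus, read 9.53, 9.47, 9.44 and 9.42 in untreated and 9.96, 9.94, 9.82 and 9.69 in biopsied pools, also separated (0.39 ± 0.09), and all 5 of its probe sets were higher, the brightest by 0.09 ± 0.13. The complexes as wholes did not lean: 14 of 28 anaphase-promoting complex and mitosis genes were higher, with a median of 0.00, and Anapc5 (-0.15 ± 0.06) and Cdc16 (-0.22 ± 0.09), subunits of the same complex, were on the lower side. Of 25 nuclear transport genes 15 were higher, with a median of 0.01.

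Tmx3, a thioredoxin-like oxidoreductase of the endoplasmic reticulum, had the lowest unadjusted p of the genes named here. It read 4.21, 4.03, 4.19 and 4.11 in untreated and 4.93, 4.84, 4.39 and 4.79 in biopsied replicates 2 to 5. The groups did not overlap (0.60 ± 0.12), but this probe set is dim, and the brightest for the gene, from 11.54 to 12.16, differed by 0.10 ± 0.13 with 2 pairs in each direction. Uba6, a ubiquitin-activating enzyme, read 9.15, 9.02, 9.38 and 8.93 in untreated and 9.87, 9.85, 9.54 and 10.33 in biopsied pools (0.78 ± 0.26). All 4 of its probe sets were higher in biopsied pools, and in the brightest, too, the groups did not overlap (0.15 ± 0.13). Fbxw7, the substrate receptor of an SCF ubiquitin ligase, was separated at 8.00 to 8.48 against 8.67 to 8.98 (0.47 ± 0.13), while its second probe set gave -0.04 ± 0.31. Of 14 SCF genes 9 were higher (64.3%, near the 59.1% of all genes), 2 of them with separated groups (1.9% of all genes), and the median was 0.03. The software signal gave 5 higher and 9 lower, with a median of -0.01.

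Other separated genes on the higher side included Rlim, an X-linked ubiquitin ligase that acts on X inactivation in the mouse, at 8.38 to 8.59 in untreated and 8.61 to 8.75 in biopsied pools (0.21 ± 0.06). The other 3 probe sets of Rlim overlapped, the brighter pair at 0.09 ± 0.22 and 0.01 ± 0.11 and the last at -0.23 ± 0.20, on the lower side. Tbca, a cofactor for folding beta-tubulin, was higher on all 4 of its tested probe sets, at 14.86 to 15.13 against 15.15 to 15.42 on the brightest (0.27 ± 0.09). Topors, a ubiquitin and SUMO ligase, was higher on all 3 of its probe sets (0.25 ± 0.09). Hook1, a linker of cargo to microtubule motors, differed by 0.65 ± 0.19 and Med1, a subunit of the Mediator complex, by 0.41 ± 0.12, but at least 1 other probe set of each had the opposite sign. The same held for Lars2, the mitochondrial leucyl-tRNA synthetase: its dim probe set gave 0.93 ± 0.22 without overlap, and its bright one gave -0.26 ± 0.11, lower in all 4 pairs. Of the 331 probe sets at an unadjusted p under 0.05 whose gene had another tested probe set, 211 had all the others on the same side. The same share was not computed over all probe sets, so no conclusion is drawn from this number.

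**Figure D4:**
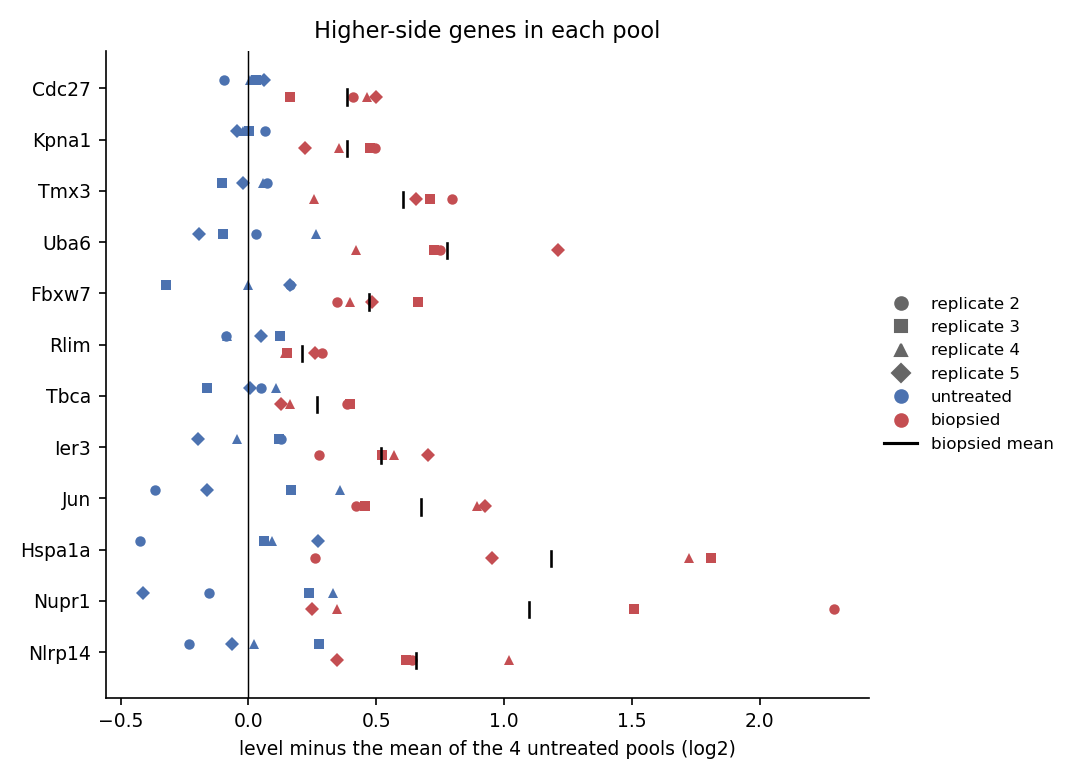
Level of 12 genes on the higher side in each pool, minus the mean of the 4 untreated pools (log2, horizontal axis), blue for untreated and red for biopsied pools, with a marker shape for each replicate number and a black bar at the biopsied mean. Cdc27 and Kpna1 show tight untreated pools and separated groups, while Hspa1a and Nupr1 have larger means (1.18 and 1.10) carried by 2 or 3 biopsied pools.

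Immediate early and integrated stress response genes lay more often on the higher side, with small medians, and heat shock genes did not. Of 19 immediate early genes, which answer within minutes to signals and handling, 16 were higher (84.2%, against 59.1% of all genes) and 3 lower, and 3 were separated on the higher side, where 1.9% of all genes are. Their median was 0.06, and 0.10 with the software signal, where 14 were higher. It came to 0.15 without untreated replicate 4, 0.14 without untreated replicate 5 and 0.16 without biopsied replicate 3. Jun, a subunit of the AP-1 factor, read 8.38, 8.91, 9.10 and 8.58 in untreated and 9.17, 9.20, 9.64 and 9.67 in biopsied pools (0.67 ± 0.41). Ier3 read 8.86, 8.85, 8.68 and 8.53 against 9.01, 9.25, 9.30 and 9.43 (0.52 ± 0.21), and Ccn2, a matricellular protein that is also a target of Yap1, was separated at 0.41 ± 0.29. The other groups overlapped these levels, with Jun between 6.96 and 9.51 and Ier3 between 8.05 and 9.51 in the 12 other pools.

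Hspa1a, the stress-inducible heat shock protein, read 3.96, 4.44, 4.47 and 4.65 in untreated and 4.64, 6.19, 6.10 and 5.33 in biopsied replicates 2 to 5. Biopsied replicate 2 was no higher than untreated replicate 5, and the other biopsied pools lay above all untreated pools. It was Present on 0 of 4 untreated and 3 of 4 biopsied arrays. By the means of the GC-RMA values it was at least 2.27-fold higher in biopsied pools, a bound that leaves out the sampling error. With the software signal, and its offset, the log2 difference was only 0.46, less than that bound. Its near-identical copy Hspa1b, whose transcripts the probes may share, was bright and differed by 0.31 ± 0.27. Hmox1, the heme oxygenase induced by oxidative stress, was higher in all 4 pairs with overlapping groups (0.74 ± 0.47), from 8.42 to 10.15 in untreated and from 9.92 to 10.63 in biopsied pools. The whole heat shock list, these genes included, split 12 higher and 9 lower of 21, with a median of 0.01, and with the software signal 8 and 13, with a median of -0.04. The constitutive Hspa8 had an interval from -0.08 to 0.06.

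The integrated stress response list, genes induced when translation initiation is curbed, gave 16 higher (80.0%, against 59.1% of all genes) and 4 lower of 20, 0 separated, with a median of 0.09. With the software signal, by which 6027 of 12025 genes were higher, 12 were higher and 8 lower, and the median came to 0.01. Nupr1, a stress-induced nuclear protein, read 7.34, 6.55, 5.39 and 5.30 in biopsied replicates 2 to 5 against 4.63 to 5.38 in untreated pools (1.10 ± 0.58). Trib3, a pseudokinase of the same response, likewise had its top value in biopsied replicate 2, at 8.86, with the other biopsied pools at 6.71 to 7.51 and untreated pools at 6.59 to 7.16 (0.73 ± 0.47). Biopsied replicate 2 held the highest of the 8 values for 8 of the 20 genes and untreated replicate 2 the lowest for 8. Ddit4, an inhibitor of mTOR signalling, was higher in all 4 pairs with overlapping groups (0.49 ± 0.33). The 21 p53 targets split 11 higher and 10 lower, with a median of 0.00, and Cdkn1a, the cell cycle inhibitor that p53 induces, differed by -0.32 ± 0.27. The 23 members of the Bcl2 and caspase list split 14 and 9, with a median of 0.02 and 0 separated. Its largest value was that of Pmaip1 (Noxa), at -0.79 ± 0.56, with biopsied replicates 2 and 3 at 7.38 and 6.96 and the other 6 pools between 8.20 and 9.66.

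Metabolic groups had medians near 0. Of 29 oxidative phosphorylation genes 24 were lower (82.8%, against 40.9% of all genes) and 5 higher. Their median was -0.05 (-0.06 with the software signal) against 0.01 for all genes, and 8 were lower in all 4 pairs, where 4.39% of all genes were. Biopsied replicate 4 held the lowest of the 8 values for 16 of the 29. Sdhb, the iron-sulfur subunit of succinate dehydrogenase, read 13.29, 13.26, 13.17 and 13.14 in untreated and 13.16, 13.10, 12.90 and 13.01 in biopsied replicates 2 to 5, just overlapping (-0.17 ± 0.07). Cyc1, of complex III, was also lower in all 4 pairs (-0.15 ± 0.10).

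Glycolysis and pyruvate genes split 15 higher (65.2%, near the 59.1% of all genes) and 8 lower of 23, with a median of 0.03 (0.00 with the software signal). Slc37a2, a sugar-phosphate antiporter of the endoplasmic reticulum, went the other way. It read 11.38, 11.48, 11.16 and 11.28 in untreated and 11.004, 10.96, 10.64 and 10.70 in biopsied replicates 2 to 5 (-0.50 ± 0.14). The biopsied pools lay below all 16 other arrays of the study, whose lowest was 11.03. Cytosolic ribosomal proteins, 9 lower of 12 (75.0%, against 40.9% of all genes), had a median of -0.03. Actin, tubulin and microvillus genes, 18 lower of 22 (81.8%), had a median of -0.04, with Tubb5, a beta-tubulin, at -0.23 ± 0.10. With the software signal 14 of these 22 genes were lower and 8 higher, with a median of -0.06. Sterol synthesis genes split 11 and 9 with a median of 0.04.

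As over all genes, transcripts known from the oocyte lay more often on the higher side with the GC-RMA values than with the software signal. Of 17 oocyte and maternal genes tested 13 were higher (76.5%, against 59.1% of all genes), with a median of 0.08, and 2 were separated on the higher side, where 1.9% of all genes are. The software signal gave 9 higher and 8 lower, with a median of 0.04, where all genes gave 6027 and 5998, with a median of 0.00. Khdc3, of the subcortical maternal complex and the brightest of the list, differed by -0.06 ± 0.11, and the summed level of the list in biopsied replicates 4 and 5, at 14.57 and 14.71, was below that of every untreated pool. Nlrp14, an NLR protein of the oocyte, read 5.87, 6.38, 6.13 and 6.04 in untreated and 6.74, 6.72, 7.13 and 6.45 in biopsied pools (0.65 ± 0.21, but 0.04 with the software signal). Nlrp5 (Mater), of the same complex, was separated at 6.09 to 6.28 against 6.35 to 6.71. It was Present on 0 untreated and 2 biopsied arrays, so at least 1.23-fold higher by the means, sampling error left out. Ddx4 (0.50 ± 0.19) and Dazl (0.80 ± 0.39), of the germ cell lineage, overlapped. Without biopsied replicate 2 the median of the list was 0.00. The 6 tested genes of zygotic genome activation and the 2-cell stage were all higher, by 0.00 to 0.30, with 0 separated, and with the software signal 3 were higher and 3 lower.

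Imprinted genes split 15 higher (68.2%, against 59.1% of all genes) and 7 lower of 22, with 0 separated. Their median of 0.08 came to 0.00 with the software signal. Grb10, an imprinted adaptor that restrains growth, had the largest value, 0.63 ± 0.42, from 7.95 to 8.75 in untreated and from 8.55 to 9.62 in biopsied pools. DNA methylation and imprint maintenance genes split 8 and 7 of 15. Smchd1, a chromatin protein of the inactive X, was higher in all 4 pairs (0.21 ± 0.10), with the groups overlapping between 11.75 and 11.82. The Hippo pathway list, which links cell position to trophectoderm fate, gave 12 higher and 8 lower of 20, with a median of 0.04.

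**Figure D5:**
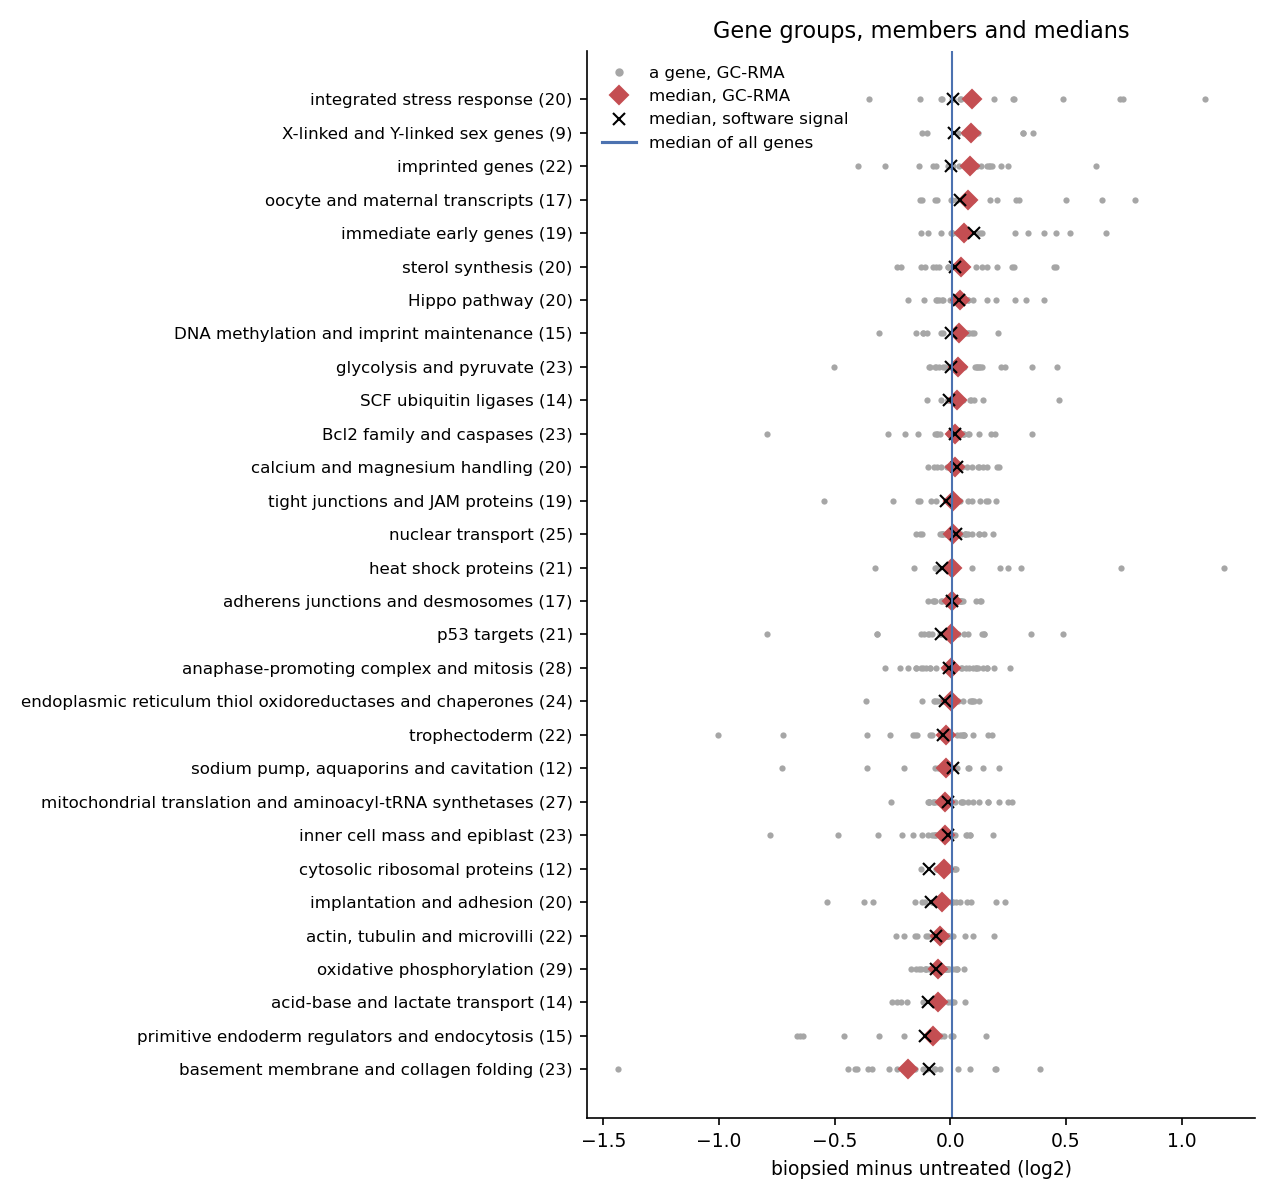
Log2 difference of biopsied minus untreated pools for the members (grey points) of the gene groups with 9 or more tested members, the number in brackets, with the median from GC-RMA values (red diamonds) and from the software signal (crosses); the blue line is the median of all genes, 0.01. Basement membrane and collagen folding has the lowest median, -0.18, and the highest, 0.09 for the integrated stress response, is close to the blue line with the software signal.

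Detection calls added few genes that behaved as if switched. Present calls went from 0 of 4 untreated to 4 of 4 biopsied arrays for 15 genes, of which 3 had separated levels, and the other way for 3 genes, of which 1, Serpinh1, did. The 3 on the higher side were Lrrc57, Mpp7 and Ccdc91, by the means at least 1.44-fold, 1.24-fold and 1.20-fold higher in biopsied pools. Their log2 differences with errors were 0.52 ± 0.29, 0.31 ± 0.13 and 0.26 ± 0.21. All 3 were also Present on arrays of the other groups, on 3, 2 and 3 of the 4 with CMF medium. Of 5359 genes with more than 1 tested probe set, 5 were higher and 10 lower on all of them with at least 2 at an unadjusted p under 0.05. The lower ones included Cubn, Serpinh1, Jam2 and Ppib, described above, and Tecr, an enzyme of very long chain fatty acid synthesis, at 11.61 to 11.91 in untreated and 11.37 to 11.57 in biopsied pools (-0.21 ± 0.08).

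Set against all 16 other arrays of the study, the biopsied pools lay above every other array for 11 probe sets (0.043%) and below for 7 (0.0274%). Some probe sets would lie so by chance, and that share was not computed, so these counts are a description. They include Rad17 on the higher side and Ppil2 on the lower, at unadjusted limma p of 0.3323 and 0.1209. With Slc37a2 and Tecr on the lower side was Aup1, a protein of endoplasmic reticulum quality control, at 10.77 to 10.83 against 10.86 or more elsewhere. On the higher side were Zfp597, an imprinted zinc finger gene, at 8.19 to 8.77 against 8.18 or less, Qtrt2, a subunit of the enzyme that inserts queuosine into tRNA, at 11.57 to 11.72 against 11.53 or less, and Brwd3, a bromodomain protein, at 10.54 to 10.77 against 10.49 or less. Aup1, Qtrt2 and Brwd3 were named after their values were seen, and the difference of the biopsied from the other treated groups was not tested for any of these genes.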

How the data were processed

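RNA of each pool was measured on a 1-colour Affymetrix MOE430 2.0 array after isolation with a PicoPure kit, linear amplification in 2 rounds and biotin labelling, per the labels. The deposited intensity values were made by the authors with GC-RMA in Array Assist Lite 3.4, per the series design text. GC-RMA corrects the background from the sequence of each probe, makes the arrays' distributions alike and combines the probes of a set. The values are linear, and the authors took log2 later, for GeneSpring 7.31 and Partek Genomics Suite 6.3. A deposited table per array also gives the intensity from the Affymetrix software (the software signal), a detection call and, per the file headers, the p-value of the detection test. The sources used here give no version of that software.

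Groups were taken from the sample titles. Of 45101 probe sets, 64 controls were left out and 25553 that were Present on 3 or more of the 20 arrays were tested, the filter of the series design text. Of these, 21292 carried a single gene symbol in the platform annotation, updated through gene numbers, and 9211 probe sets of the array are not listed there. Intensities were log2 transformed and fitted with limma 3.58.1 in R 4.3.3 (lmFit, eBayes) with 5 group means. The other 12 arrays contribute to the estimate of spread only. P-values are two-sided, adjusted by the Benjamini-Hochberg method over all tested probe sets, and called under 0.05. Values with ± are differences with limma standard errors unless SD is named, with n = 4 pools per group. The fit was tested on simulated data with known differences. Nothing says which pools shared a day or a set of mothers, so a p-value here reflects the spread among these pools alone, which may be technical.

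The 33 gene lists (745 genes, 594 tested), the tests and the rule for naming genes were chosen with earlier results of these data known. The rule took, per direction, the 12 separated genes of lowest p, the 8 largest separated differences, genes with several probe sets leaning together, genes with switched detection calls, the 6 leaders of the paired fit, and of each list the 4 of lowest p and the 2 brightest. "Separated" means that the groups of 4 values did not overlap. Where a probe set was Present on 0 arrays of a group, the fold between the group means is given as a bound. Such a bound concerns detection only and leaves out the sampling error. Alternatives covered the summary, normalization, filters, a floor, an intensity trend, array weights, the replicate number as a block, the 8 arrays alone and each array left out. A log2 offset of 16 was added to the software signal, which reaches 0. No coordinates or sequences were used.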

Additional observations from a re-analysis of the deposited data

Results flagged for a closer look

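In 10 of 154 groups of 4 values examined, a pool lay far from the others by Dixon's ratio at its 95% critical value, where chance gives about 5%. In untreated pools these were Pou5f1 in replicate 3, at 14.59 with the others at 14.41 to 14.44, Plod2 in replicate 4, at 10.28 with the others at 10.55 to 10.56, and Lars2 in replicate 2, at 3.89 with the others at 4.63 to 4.77. Cdkn1a stood at 10.60 in replicate 5 with the others at 11.18 to 11.29, Nlrp5 at 6.09 in replicate 4 with the others at 6.26 to 6.28, and Mpp7 at 2.61 in replicate 3 with the others at 2.65 to 2.66.

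In biopsied pools, Sparc stood at 9.60 in replicate 2, with the others at 8.26 to 8.40, so its lower mean rests on the other 3 pools. Lama1 stood at 4.07 in replicate 3 with the others at 4.38 to 4.44. Replicate 4 was the low pool for Runx1, at 3.25 with the others at 4.24 to 4.38, and for Tecr, at 11.37 with the others at 11.55 to 11.57.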

How the results depend on the processing

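The count at an adjusted p under 0.05 was 0 in all fits but that without untreated replicate 5, where it was 1, Zfp78 (log2 difference -0.50, adjusted p 6.91e-04 in limma; -0.29 ± 0.14 with all arrays). With the replicate number as a block it was 0, the lowest adjusted p being 0.363, and the counts at an unadjusted p under 0.05 were 568 higher and 332 lower, against 350 and 185. They were 751 and 260 with the 8 arrays only, 1013 and 462 with these and the block, 289 and 450 with the software signal, 1061 and 461 with array weights, 761 and 281 without CMF_acid replicate 5, and 1211 and 539 without it and with the block, the last 2 chosen after seeing the data. Both directions counted, the share was above 0.05 with array weights, with the 8 arrays and the block, and without CMF_acid replicate 5 with the block. It was below 0.05 in the other fits named here. Leaving out each array gave 276 to 420 higher and 165 to 299 lower. Deviations from the group means correlated in pairs 2 to 5 at 0.26, 0.14, -0.0026 and 0.17, and 3 of 4 biopsied arrays correlated best with their own number. Over all 5 groups the median correlation was 0.20 for the 40 same-numbered pairs and -0.073 for the 120 others. The numbers were not taken as pairing because no label says what they mark, although arrays of equal number deviated together over the 5 groups. Pair 4 alone lay near 0. With the block and without CMF_acid replicate 5 the lowest adjusted p in limma was 0.134. Lower in all 4 pairs were 1778 probe sets with the software signal, against 994. The difference in the share Present ran from 1.06 to 1.79 points over the arrays left out, with the exact permutation p from 0.0286, at 1.79, to 0.1143. At 1.79 the only overlapping pool was left out, which fixes that p at its smallest.

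List medians moved with the software signal to -0.0935 for basement membrane and collagen folding, -0.0966 for acid-base transport, -0.0362 for heat shock proteins, 0.0123 for the integrated stress response, 0.0009 for glycolysis, -0.0908 for ribosomal proteins, 0.0034 for imprinted genes and -0.0844 for implantation genes. With each gene's probe sets averaged they were -0.1002 for basement membrane and -0.028 for DNA methylation. With a filter of Present on all 4 arrays of a group they were -0.0966 for acid-base transport, 0.0115 for glycolysis and 0.2169 for zygotic activation genes. With a floor they were -0.0069 for acid-base transport and 0.0054 for imprinted genes, and with array weights 0.0465 for imprinted genes. Over the arrays left out the median ran from -0.194 to -0.099 for basement membrane, -0.0327 to 0.0492 for cavitation, 0.0243 to 0.1576 for immediate early genes, 0.0006 to 0.0588 for glycolysis, 0.0322 to 0.0973 for imprinted genes and 0.0018 to 0.1246 for oocyte genes.

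Not every gene named in the text was recomputed. Among those that were, the sign turned for values within their error. With the software signal these were Pou5f1 (-0.0108), Nanog (0.0043), Gata6 (0.0257) and Eif2s3y (-0.0101), and with array weights Krt18 (0.0206) and Eif2s3y (-0.0187). Over the arrays left out they ran from -0.0549 to 0.0004 for Krt8, -0.0752 to 0.0495 for Krt18, -0.0064 to 0.0642 for Pou5f1, -0.113 to 0.0673 for Nanog, -0.0564 to 0.0177 for Sox2, -0.0652 to 0.0161 for Gata6, -0.0607 to 0.0048 for Lrp2, -0.2492 to 0.3941 for Eif2s3y, -0.2953 to 0.0428 for Xist and -0.0048 to 0.1364 for Atp1b1. The causes were not tested.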

Other observations

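Most groups not described above had medians within 0.05 of 0. The 24 endoplasmic reticulum oxidoreductases and chaperones split 13 higher and 11 lower, with a median of 0.00, and Pdia4, a disulfide isomerase, was the separated member, at 8.40 to 8.65 in untreated and 7.89 to 8.40 in biopsied pools (-0.36 ± 0.16). Genes of implantation and adhesion split 9 higher and 11 lower of 20 (median -0.04), mitochondrial translation and aminoacyl-tRNA synthetases 13 and 14 of 27 (-0.02), cumulus and granulosa markers 4 and 2 of 6 (0.01), and sperm and blood markers 1 and 1 of 2 (-0.0063). Sex-linked genes split 7 higher (77.8%, against 59.1% of all genes) and 2 lower of 9, with a median of 0.09, close to the highest of the lists. With the software signal they split 5 and 4, with a median of 0.02.

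Adh1 and Ndrg1 had large differences with overlapping groups, and they were picked after their values were seen. Adh1, an alcohol dehydrogenase with an untreated mean of 13.53, differed by -1.24 ± 0.66. Ndrg1, a hypoxia-inducible gene with an untreated mean of 8.31, differed by -1.02 ± 0.86.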
